A study of Mus musculus with 9 samples.

Results

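The mitochondrial IQM and WANCY clusters are the 8 tRNA genes that flank mt-Nd2, the gene of a subunit of respiratory complex I: Ile, Gln and Met on one side, and Trp, Ala, Asn, Cys and Tyr on the other. All 8 mature tRNAs were taken by name and not by measured level, though with earlier results of these data known. They were drawn from the 22 mitochondrial tRNAs and the 778 small RNA species and classes in the files. PANDORA-seq, a small RNA sequencing method in which RNA is first treated with AlkB to remove methyl groups that stop reverse transcription and with T4 polynucleotide kinase to repair RNA ends, had been applied to atrial appendages of C57BL/6 mice. Curcumin-treated mice were 18 months old and had been given curcumin, a plant polyphenol, at 100 mg/kg each day in non-fat skim milk between the ages of 12 and 18 months. Old mice were 18 months old and young mice 5 months old, and neither group was given curcumin, with 3 libraries in each of the 3 groups. The labels do not say whether untreated mice drank the milk or whether a library is 1 animal, so p-values measure the spread between libraries.

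Mammalian mitochondrial DNA is transcribed from both strands into long precursors in which tRNAs lie between the mRNAs. Mitochondrial RNase P cuts each tRNA at its 5′ end and ELAC2 at its 3′ end, and TRNT1 then adds the CCA tail that carries the amino acid, which the genes do not encode. Fragments of mature tRNAs can thus start at the 5′ end, finish at the CCA tail, or come from elsewhere in the molecule. The heart is rich in mitochondria, and the transcripts of both strands pass through these clusters.

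In the mm10 genome (positions from GENCODE) the IQM cluster held mt-Ti (Ile, chrM:3706-3774, plus strand), mt-Tq (Gln, chrM:3772-3842, minus strand) and mt-Tm (Met, chrM:3845-3913, plus strand). mt-Ti and mt-Tq overlapped by 3 bases on opposite strands. After mt-Nd2 (chrM:3914-4951, plus strand), the WANCY cluster held mt-Tw (Trp, chrM:4950-5016, plus strand), mt-Ta (Ala, chrM:5018-5086), mt-Tn (Asn, chrM:5089-5159), mt-Tc (Cys, chrM:5192-5257) and mt-Ty (Tyr, chrM:5260-5326), the last 4 on the minus strand. The 32 bases between mt-Tn and mt-Tc are where replication of the light strand starts. Ile, Met and Trp were therefore read from the plus strand, in transcripts from the heavy-strand promoter, and the other 5 from the minus strand, in transcripts from the light-strand promoter.

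The genes below, from GENCODE transcripts of mm10, are shown because the 2 fragments with the smallest edgeR p in each comparison came from them. None of these fragments passed the adjusted test. The genes are written 5′ to 3′ as DNA, with the anticodon in capitals and without the CCA tail.
Met-CAT, plus strand: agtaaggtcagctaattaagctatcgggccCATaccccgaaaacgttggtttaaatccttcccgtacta
Trp-TCA, plus strand: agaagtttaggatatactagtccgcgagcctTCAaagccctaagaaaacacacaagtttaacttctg
Asn-GTT, minus strand: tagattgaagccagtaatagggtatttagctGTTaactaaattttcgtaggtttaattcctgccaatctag
Tyr-GTA, minus strand: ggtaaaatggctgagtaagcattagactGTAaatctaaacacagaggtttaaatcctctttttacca
Met-CAT was the richest of the 8 genes in G and C, at 44.9% of its bases, and Ile-GAT the poorest, at 27.5%. C made up 26.1% of Met-CAT and 22.4% of Trp-TCA, both on the plus strand, against 11.3% to 16.4% of the 5 minus-strand tRNAs, while Ile-GAT of the plus strand had 11.6%.

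Clean reads numbered between 12899427 and 19707803 per library. The 3 libraries numbered 1, one in each group, stood apart, with 72.2% to 73.7% of clean reads matching the genome, against 65.0% to 68.3% in the other 6 libraries, and results are given with and without them where they differ. All 7 cardiac muscle miRNAs of the marker list were present, at a summed level of 11500 to 18190 reads per 1000000 clean reads in curcumin-treated, 3767 to 11950 in old and 4299 to 17960 in young libraries. The list of red blood cell miRNAs, with all 4 present, stood at 24.6 to 57.6 in curcumin-treated, 36.5 to 42.5 in old and 38.1 to 296 in young libraries. Of the leukocyte miRNAs 3 of 4 were matched by the names listed, and miR-142 was not, so its reads are not in the sum. Those matched stood at 41.3 to 58.7 in curcumin-treated, 20.5 to 35.9 in old and 21.1 to 91.6 in young libraries. The endothelial miR-126a ranged from 7720 to 9066 in curcumin-treated, 3039 to 8519 in old and 3200 to 10990 in young libraries, and the summed smooth muscle miRNAs miR-143 and miR-145a from 584 to 774 in curcumin-treated, 174 to 553 in old and 212 to 688 in young libraries. Loci of the liver miRNA miR-122 and of the neuronal miR-124 and miR-9 summed to at most 3.92 and 5.23 in any library. Whether these ranges come from differences in cell content, and what part such differences have in the values below, was not tested. In bulk tissue fewer cells of a type and less RNA per cell cannot be told apart.

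The 8 tRNAs gave 952219 reads in all, which were 0.677% ± 0.119 of clean reads in curcumin-treated, 0.590% ± 0.0554 in old and 0.646% ± 0.149 in young mice (mean ± SD over 3 libraries, as for all group means that follow). Among reads of mitochondrial tRNAs they took 8.48% ± 0.370 in curcumin-treated, 8.39% ± 0.732 in old and 8.30% ± 0.170 in young mice. Neither share differed between groups beyond the spread of the libraries, with exact two-sided permutation p between 0.3 and 1 over the 3 comparisons, where the smallest p that 3 against 3 libraries can give is 0.1. Without young replicate 1 the difference in the first share between old and young mice turned to 0.0281 percentage points, and without old replicate 3 the difference in the second turned to -0.328. The first share turned in curcumin-treated against young mice without curcumin replicate 1 (-0.0213) or young replicate 2 (-0.0267), and the second in curcumin-treated against old mice without curcumin replicate 1 (-0.0824), old replicate 1 (-0.159) or old replicate 2 (-0.0756).

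Levels are given as counts per 1000000 reads in annotated features (CPM), with TMM scaling. The total of a tRNA and its parts were scaled in separate tables, so the parts do not add up exactly to the total. Divided by gene length, the mean level over the 9 libraries was highest for Cys-GCA, at 22.3 CPM per base, followed by Ala-TGC at 18.8, Trp-TCA at 17.8, Ile-GAT at 15.0, Met-CAT at 12.8, Asn-GTT at 9.24, Gln-TTG at 6.70 and Tyr-GTA at 5.50 CPM per base. The libraries of neighbours in this order overlapped: Cys-GCA ranged from 14.7 to 30.6 CPM per base and Ala-TGC from 15.6 to 24.0, and at the low end Gln-TTG ranged from 4.55 to 9.08 and Tyr-GTA from 3.95 to 8.52. By group, Asn-GTT was the lowest of the 8 in curcumin-treated mice, at 5.79 ± 1.25 CPM per base, while in old mice it stood at 11.95 ± 4.07, level with Met-CAT at 11.94 ± 0.214, and in young mice at 9.99 ± 3.28. Trp-TCA lay above Ala-TGC in curcumin-treated (18.9 and 18.2) and young mice (19.7 and 19.3), and below it in old mice (14.7 and 19.0), each time with overlapping libraries. In all 3 groups the order did not follow the strand, since the highest and lowest places were both held by minus-strand tRNAs.

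Of the plus-strand tRNAs, mt_tRNA-Ile-GAT, which decodes isoleucine, had totals of 983, 1079.5 and 898 CPM in curcumin-treated, 912, 891 and 1229 CPM in old, and 1186, 1095 and 1068 CPM in young mice. mt_tRNA-Met-CAT, which in mammalian mitochondria serves both to start proteins and to extend them, had 1086, 833 and 862 CPM in curcumin-treated, 809, 826 and 838 CPM in old, and 894, 918 and 873 CPM in young mice. Its old libraries all lay below its young ones, by a narrow gap. mt_tRNA-Trp-TCA, which reads UGA as tryptophan in mitochondria, had 1288, 1329 and 1185.5 CPM in curcumin-treated, 923, 943 and 1084 CPM in old, and 1353, 1565 and 1047 CPM in young mice. All curcumin-treated libraries lay above all old ones for Trp-TCA, and the young libraries spanned both groups.

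mt_tRNA-Asn-GTT, a minus-strand tRNA whose first anticodon base carries queuosine in mammals, had totals of 512, 375 and 347 CPM in curcumin-treated, 515, 997 and 1033 CPM in old, and 444, 808 and 876 CPM in young mice. The curcumin-treated libraries all lay below the old ones, but the highest of them, replicate 1, was separated from old replicate 1 by only a few CPM, and in every group replicate 1 stood away from the other 2 libraries. mt_tRNA-Cys-GCA, encoded beside the light-strand origin, had 2018, 971 and 1205 CPM in curcumin-treated, 1479.9, 1769.8 and 1735 CPM in old, and 1365, 1209 and 1514 CPM in young mice. Curcumin replicate 1 held the highest Cys-GCA level and curcumin replicate 2 the lowest of all 9 libraries.

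mt_tRNA-Ala-TGC had totals of 1519, 1171 and 1077.5 CPM in curcumin-treated, 1083, 1190.2 and 1656 CPM in old, and 1214, 1348 and 1424 CPM in young mice. mt_tRNA-Gln-TTG, whose wobble base carries a taurine modification in mammals, had 645, 462 and 418 CPM in curcumin-treated, 375, 482 and 473 CPM in old, and 323, 527 and 577 CPM in young mice. mt_tRNA-Tyr-GTA, another queuosine tRNA, had 571, 379 and 274 CPM in curcumin-treated, 343, 289 and 417 CPM in old, and 391, 385 and 265 CPM in young mice. The groups overlapped for all 3 of these tRNAs.

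**Figure D1:**
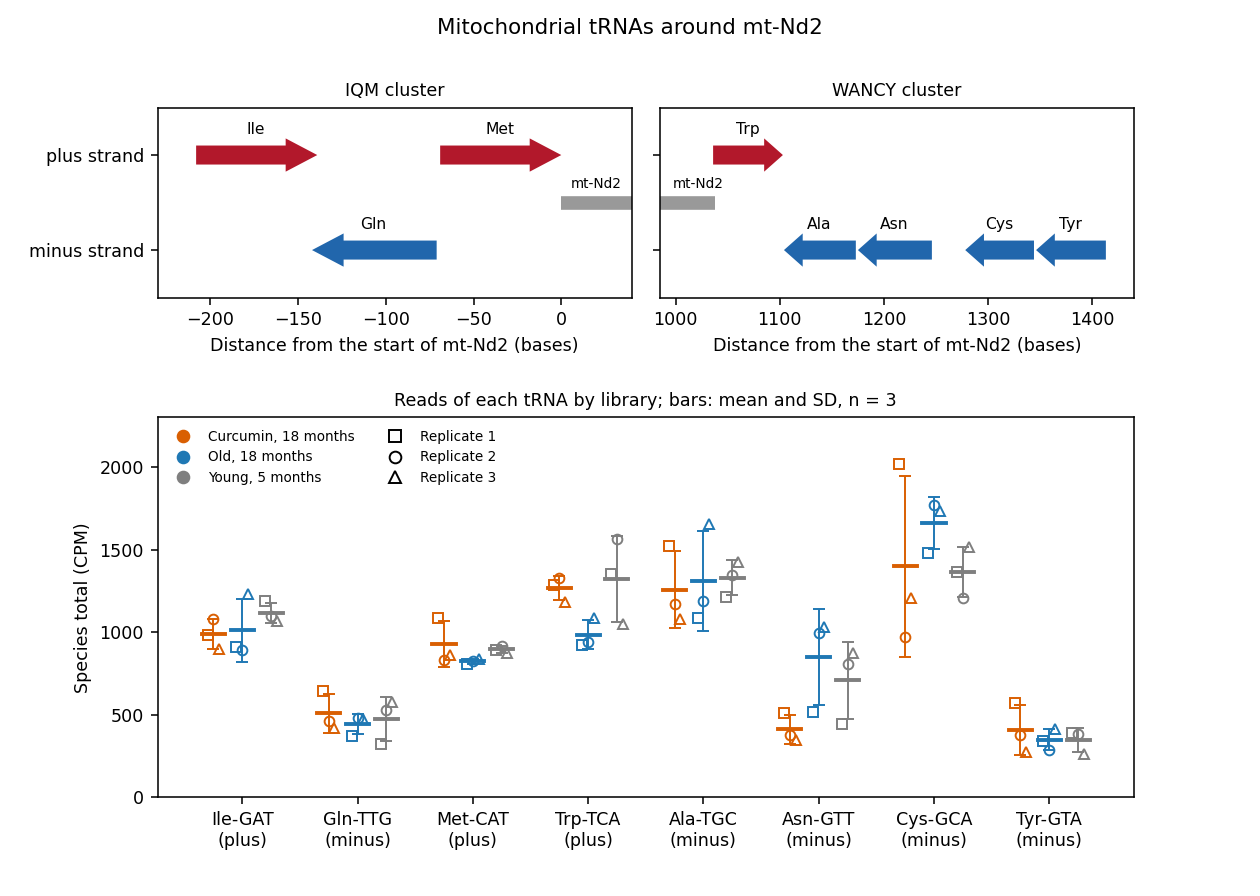
The upper panels show the 8 tRNA genes as arrows by strand against their distance in bases from the start of mt-Nd2, and the lower panel shows the total CPM of each tRNA in each library, with bars for the mean and SD (n = 3). Asn-GTT is lower in all 3 curcumin-treated libraries (347 to 512 CPM) than in the old libraries (515 to 1033 CPM), while Ala-TGC, Gln-TTG and Tyr-GTA overlap between all groups.

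The totals were tested in 1 edgeR quasi-likelihood fit over all species, in which a species counted as changed at a Benjamini-Hochberg adjusted p under 0.05. No total of the 8 passed in any comparison, against a background of 0% of the 319 species tested. At an unadjusted p under 0.05 edgeR gave 1 of the 8 in curcumin-treated against old mice, 1 in curcumin-treated against young mice and 0 in old against young mice, where all 319 species gave 9, 15 and 4. DESeq2 and limma-voom also called 0 of the 8 in each comparison. Over all 319 species DESeq2 called 1, lower in curcumin-treated than in young mice, and limma-voom called 0. Asn-GTT was the total with the smallest p in curcumin-treated against old mice, with a log2 change of -1.04 (SE 0.35) and an edgeR adjusted p of 0.875, and in curcumin-treated against young mice, with -0.79 (SE 0.35) and an adjusted p of 0.916. In old against young mice it was Trp-TCA, with -0.43 (SE 0.22) and an adjusted p of 0.993. The old libraries enter both the first and the last of these comparisons, and the curcumin-treated libraries the first 2.

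Libraries did not overlap for 2 of the 8 totals in curcumin-treated against old mice, Asn-GTT (lower) and Trp-TCA (higher), against 15% of all species tested. In old against young mice they did not overlap for Met-CAT alone, against 5.33% of species, and in curcumin-treated against young mice for none of the 8, against 10.7%. These counts rest on TMM-scaled CPM and are too small to set apart from the background. Without the 3 libraries numbered 1, a fit chosen after the data were seen that leaves 2 libraries a group, edgeR called Asn-GTT (log2 change -1.51, SE 0.26, adjusted p 1.96e-06) and Cys-GCA (-0.72, SE 0.25, adjusted p 0.0272) lower in curcumin-treated than in old mice, when 18.8% of all species were called. In the same fit Asn-GTT was also lower in curcumin-treated than in young mice (-1.34, SE 0.26, adjusted p 2.97e-05), when 23.4% of species were called, and no total was called in old against young mice, where 0 of the 8 had an unadjusted p under 0.05. With the 22 mitochondrial tRNAs alone in this smaller fit, Asn-GTT was again lower and Met-CAT (0.46, SE 0.16) and Trp-TCA (0.75, SE 0.22) were higher in curcumin-treated than in old mice, when 40.9% of the 22 were called, and Asn-GTT was lower in curcumin-treated than in young mice, when 22.7% were.

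The balance of the strands was taken as the log2 ratio of plus-strand to minus-strand reads within each library, which does not depend on scaling. It was -0.65, -0.05 and -0.17 in curcumin-treated, -0.52, -0.83 and -0.75 in old, and -0.12, -0.26 and -0.64 in young mice. The 5 minus-strand tRNAs together thus gave more reads than the 3 plus-strand ones in all 9 libraries, and the balance was lowest in old replicates 2 and 3. Curcumin-treated libraries averaged -0.29 ± 0.32, old libraries -0.70 ± 0.16 and young libraries -0.34 ± 0.27. The difference was 0.41 in curcumin-treated against old and -0.36 in old against young mice, with an exact two-sided permutation p of 0.2 for each, which the adjustment over 21 tests of shares and ratios raised to 0.7. It was 0.05 in curcumin-treated against young mice (exact p = 0.8) and turned negative without curcumin replicate 2 (-0.07), without curcumin replicate 3 (-0.01) or without young replicate 3 (-0.10). Without the 3 libraries numbered 1 the same differences were 0.68, -0.34 and 0.34. Within the numbers 1, 2 and 3, curcumin-treated minus old libraries gave -0.13, 0.78 and 0.58.

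Set against each other, the IQM and WANCY clusters had a log2 ratio of -1.12, -0.83 and -0.91 in curcumin-treated, -1.05, -1.24 and -1.22 in old, and -0.99, -1.06 and -1.03 in young mice. The young libraries lay within a narrow band, with a mean of -1.03 ± 0.04, against -0.95 ± 0.15 in curcumin-treated and -1.17 ± 0.10 in old mice. The exact two-sided permutation p was 0.2 in curcumin-treated against old, 0.2 in old against young and 0.5 in curcumin-treated against young mice. The differences were 0.22, -0.14 and 0.07, and leaving out the 3 libraries numbered 1 made them 0.36, -0.19 and 0.18. The 2 libraries left in each group then did not overlap with those of another, and the same held for the strand ratio. So few libraries often separate by chance.

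**Figure D2:**
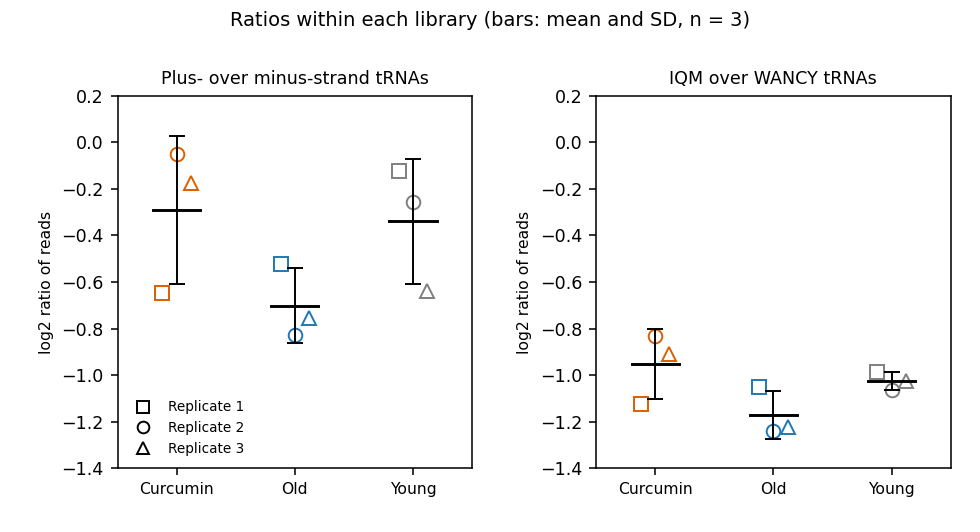
Each panel plots 1 log2 ratio of reads per library, plus-strand over minus-strand tRNAs on the left and the IQM over the WANCY cluster on the right, with bars for the mean and SD (n = 3). All values are below 0, and the groups overlap in both panels.

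Each tRNA was divided in the files into reads of its 5′ end, of its 3′ end without CCA, of its CCA end, and the remainder. The positions of reads within a part are not given. By mean CPM over the 9 libraries, the remainder was the most abundant part of Ile-GAT, Met-CAT, Ala-TGC, Asn-GTT and Cys-GCA. By the same measure the 5′ end was that of Gln-TTG and Tyr-GTA, and the CCA end that of Trp-TCA. Within old mice, however, the CCA end of Tyr-GTA held more of its reads (42.95%) than its 5′ end (28.37%). The remainder of Gln-TTG held more than its 5′ end in old (47.91% and 43.32%) and young mice (45.62% and 44.89%). Cys-GCA lay at one extreme, with 7.10% ± 1.08 of its reads in the 5′ end in curcumin-treated, 5.81% ± 0.957 in old and 6.31% ± 0.722 in young mice. Near the other, Gln-TTG had 47.8% ± 1.04 of its reads there in curcumin-treated, 43.3% ± 2.10 in old and 44.9% ± 0.578 in young mice. Trp-TCA had 47.2% ± 11.6 of its reads in the CCA end in curcumin-treated, 51.3% ± 8.45 in old and 47.8% ± 3.30 in young mice. The 3′ ends without CCA were the rarest part, with group means between 0.114% of reads (Gln-TTG, young) and 1.74% (Trp-TCA, curcumin-treated). Counting error of any such share in 1 library is at most 1.88 percentage points to either side (95% Wilson interval), since a tRNA had at least 2648 reads in a library.

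Reads that did not match the genome fell almost wholly in the CCA ends and the remainder. Of the reads of the CCA ends, 86.0% did not match the genome, from 78.9% for Ile-GAT to 98.6% for Met-CAT, against 0.0224% for the 5′ ends and 0.0359% for the 3′ ends without CCA. The 3 genomic bases after the gene, read on its own strand, were gga for Ile-GAT, aaa for Gln-TTG and ata for Met-CAT, none of which spells CCA. For the other 5 genes at least 1 of these 3 bases lay outside the transcripts used and was not read. The bases read for Ala-TGC, ca after 1 unread base, leave CCA possible. It is also possible for Cys-GCA, where none of the 3 bases was read. The bases read for Trp-TCA, Asn-GTT and Tyr-GTA differ from CCA. The remainder had 11.4% of unmatched reads over the 8 tRNAs, from 1.86% for Cys-GCA to 51.1% for Trp-TCA. Reads of mitochondrial tRNAs and of copies of mitochondrial DNA in the nuclear genome cannot be told apart in these counts.

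**Figure D3:**
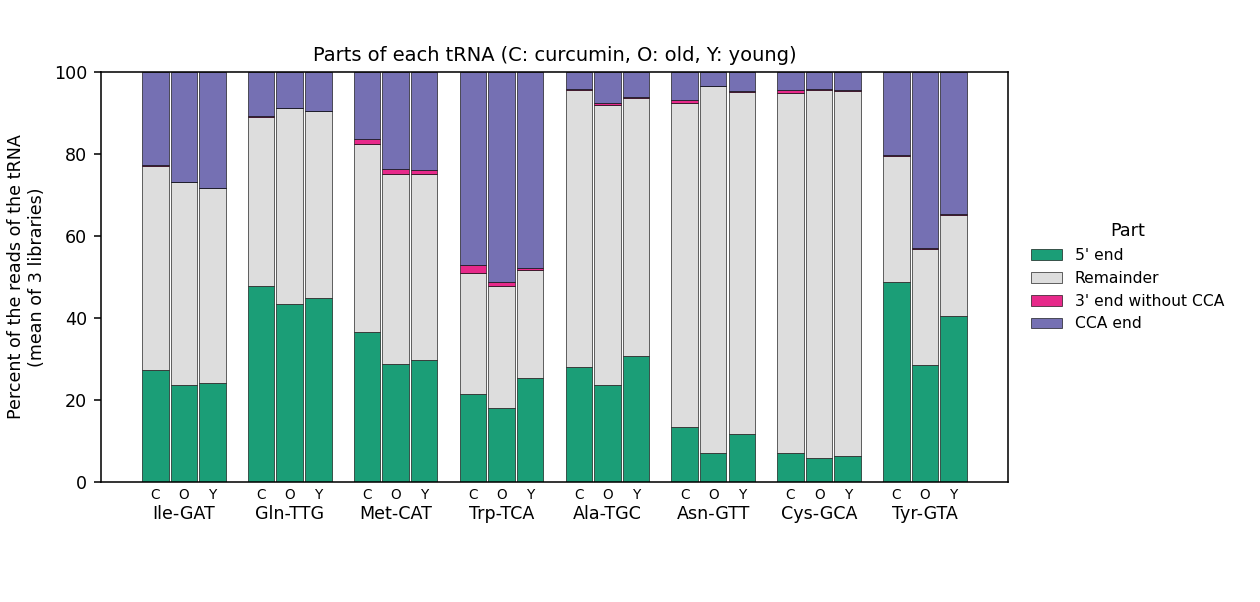
Stacked bars give the mean percentage of reads of each tRNA in its 5′ end, remainder, 3′ end without CCA and CCA end, for curcumin-treated (C), old (O) and young (Y) mice, 3 libraries each. The remainder takes most of Cys-GCA (87.9%, 89.8% and 89.1%) and the CCA end is the largest part of Trp-TCA in every group.

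Of the 8 tRNAs, Tyr-GTA alone had no overlap between any 2 groups in its 5′ share, and likewise in its CCA share, a pattern picked out after its values were seen. Its 5′ end held 54.9%, 48.6% and 43.0% of Tyr-GTA reads in curcumin-treated, 28.1%, 32.8% and 24.3% in old, and 39.1%, 42.6% and 39.7% in young mice. No library of one group reached those of another, and the old mice were lowest. The CCA end of Tyr-GTA ran the other way, with 18.8%, 20.4% and 21.6% in curcumin-treated, 39.7%, 38.0% and 51.2% in old, and 36.1%, 33.7% and 34.0% in young mice. The log2 ratio of 5′ to CCA reads of Tyr-GTA was 1.26 ± 0.28 in curcumin-treated, -0.60 ± 0.44 in old and 0.23 ± 0.11 in young mice. In the 5′ share the Wilson intervals of curcumin replicate 3 (41.33% to 44.65%) and young replicate 2 (41.14% to 44.18%) overlapped. In the CCA share the Wilson intervals of old replicate 2 (36.42% to 39.56%) and young replicate 1 (35.11% to 37.12%) overlapped too. The 2 shares are of the same reads, so the CCA end must lose what the other parts gain.

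Met-CAT held 35.7%, 39.0% and 35.2% of its reads in the 5′ end in curcumin-treated, 31.2%, 27.1% and 28.1% in old, and 31.7%, 28.4% and 29.4% in young mice. Its curcumin-treated libraries lay above those of both other groups. Asn-GTT held 11.3%, 14.1% and 15.0% in the 5′ end in curcumin-treated, 3.04%, 8.41% and 9.76% in old, and 12.0%, 12.3% and 10.8% in young mice, so that the old libraries lay below both other groups. Its remainder held 78.9% ± 4.08 of reads in curcumin-treated, 89.5% ± 2.20 in old and 83.4% ± 2.02 in young mice. The CCA end of Ala-TGC held 4.07% ± 0.863 in curcumin-treated, 7.60% ± 2.29 in old and 6.00% ± 2.30 in young mice, and only the curcumin-treated and old libraries did not overlap there.

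The 5′ share was set beside that of all 70 tRNA species with at least 100 reads in every library. In curcumin-treated against old mice the libraries did not overlap for 4 of the 8 tRNAs, Asn-GTT, Gln-TTG, Met-CAT and Tyr-GTA, all higher, against 12.9% of the 70. In old against young mice they did not overlap for Asn-GTT and Tyr-GTA, both lower, against 8.57%, and in curcumin-treated against young mice for Gln-TTG, Met-CAT and Tyr-GTA, all higher, against 21.4%. For the CCA share, libraries did not overlap for Ala-TGC and Tyr-GTA in curcumin-treated against old mice (both lower, background 8.57%), for Tyr-GTA in old against young mice (higher, 4.29%) and for Tyr-GTA in curcumin-treated against young mice (lower, 5.71%). For the remainder they did not overlap for Asn-GTT and Gln-TTG in curcumin-treated against old mice (both lower, 7.14%), for Asn-GTT in old against young mice (higher, 2.86%), and for Ala-TGC (higher) and Gln-TTG (lower) in curcumin-treated against young mice (11.4%). In this last comparison the Wilson intervals of the nearest libraries overlapped. They were 63.79% to 65% in curcumin replicate 1 and 63.35% to 64.93% in young replicate 3 for Ala-TGC. For Gln-TTG they were 41.76% to 44.45% in curcumin replicate 3 and 42.01% to 44.29% in young replicate 1. Such intervals also overlapped in the other separations of Gln-TTG and for Ala-TGC in the CCA share. The same held for Asn-GTT in the 5′ share of old against young mice. For the 3′ ends without CCA the libraries overlapped for every tRNA in each comparison, with a background of 0%. These shares of single tRNAs were not tested one by one, and with 3 against 3 libraries no overlap is the most that an exact test can see, at a p of 0.1.

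Over all 8 tRNAs together, the 5′ end held 25.8%, 27.1% and 24.0% of reads in curcumin-treated, 15.3%, 20.4% and 21.5% in old, and 22.5%, 26.3% and 22.9% in young mice. All old libraries lay below all others, and old replicate 1 was the lowest. The means were 25.6% ± 1.57 in curcumin-treated, 19.0% ± 3.32 in old and 23.9% ± 2.08 in young mice. The difference was 6.60 percentage points in curcumin-treated against old and -4.84 in old against young mice, each with an exact two-sided permutation p of 0.1, the smallest possible, and an adjusted p of 0.7 over 21 tests. Curcumin-treated and young mice differed by 1.76 points (exact p = 0.3). Without the 3 libraries numbered 1 these differences were 4.60, -3.66 and 0.945 points, and with any 1 library left out they ranged from 4.71 to 7.83, from -6.07 to -2.95 and from 1.03 to 2.95 points.

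The CCA end of the 8 tRNAs together held 11.9%, 23.0% and 18.7% of reads in curcumin-treated, 18.7%, 15.5% and 20.3% in old, and 19.8%, 21.4% and 17.7% in young mice. Curcumin replicate 1 was the lowest of all and curcumin replicate 2 the highest. The means of 17.9% ± 5.60 in curcumin-treated, 18.2% ± 2.47 in old and 19.6% ± 1.83 in young mice did not differ beyond this spread (exact p between 0.5 and 1), and without curcumin replicate 1 the curcumin-treated mean lay 2.70 points above the old and 1.25 points above the young mean. Without old replicate 3 it lay 0.798 points above the old mean. The 3′ end without CCA held 1.39%, 0.338% and 0.376% in curcumin-treated, 0.883%, 0.287% and 0.308% in old, and 0.723%, 0.218% and 0.255% in young mice. In each group replicate 1 held the most, and the exact p was 0.5 in each comparison. Within the numbers 1, 2 and 3, the differences in this share were 0.507, 0.0514 and 0.0685 points for curcumin-treated minus old, 0.160, 0.0686 and 0.0526 for old minus young, and 0.667, 0.120 and 0.121 for curcumin-treated minus young libraries. All 9 were positive, but those for curcumin-treated minus young libraries are the sums of the other 2 and so had to be positive. The exact two-sided sign-flip p was 0.25 in each comparison, the smallest that 3 pairs can give. It takes libraries of the same number as pairs, which the labels do not state. With all 3 libraries numbered 1 left out, the group means kept their order, with differences of 0.0600, 0.0606 and 0.121 points. The 2 libraries left in each group did not overlap with those of another, but so few often separate by chance. Leaving replicate 1 out of a single group turned the sign, to -0.102 points in old against young mice without old replicate 1, and to -0.135 in curcumin-treated against old and -0.0417 in curcumin-treated against young mice without curcumin replicate 1.

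**Figure D4:**
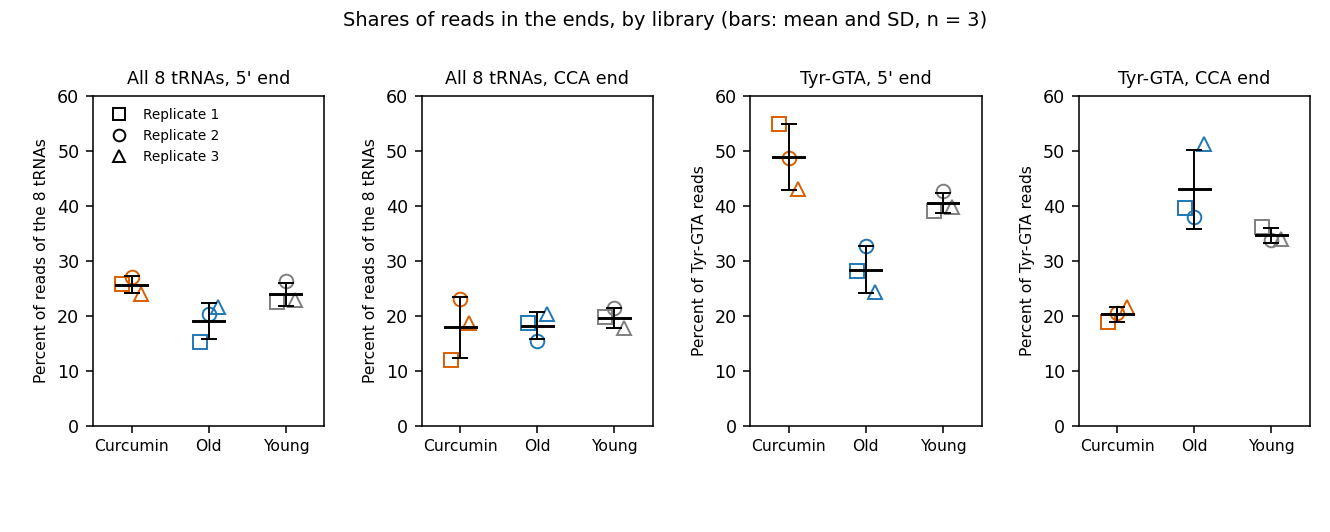
Each panel plots the percentage of reads in the 5′ end or the CCA end by library, for the 8 tRNAs together (left pair) and for Tyr-GTA alone (right pair), with bars for the mean and SD (n = 3). The Tyr-GTA libraries do not overlap between the 3 groups in either end, though some gaps lie within counting error. The pooled CCA share overlaps between all groups.

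All 32 parts of the 8 tRNAs were tested among 520 features of all kinds, and edgeR called none of them in any comparison, with a background of 0% in each. At an unadjusted p under 0.05 edgeR gave 5 of the 32 parts in curcumin-treated against old, 0 in old against young and 1 in curcumin-treated against young mice, where all features gave 21, 5 and 19. DESeq2 and limma-voom called 0 of the 32 in each comparison and gave 6, 0 and 1 at an unadjusted p under 0.05. Over all 520 features DESeq2 called 1, lower in curcumin-treated than in young mice, and limma-voom called 0. In curcumin-treated against old mice 20 of the 32 parts had a positive and 12 a negative log2 change (median 0.17), against 294 and 226 of all features (median 0.08). In old against young mice 15 were positive and 17 negative (median -0.11), against 235 and 285 (median -0.04). In curcumin-treated against young mice 16 were positive and 16 negative, against 257 and 263 of all features. Scaling by clean reads in place of TMM moved the median of all features by 0.24, -0.05 and 0.19 and gave 26 positive and 6 negative parts in curcumin-treated against old, 11 and 21 in old against young, and 22 and 10 in curcumin-treated against young mice.

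By kind of part, 7 of the 8 log2 changes of the 5′ ends were positive in curcumin-treated against old mice (median 0.26) and 7 of 8 negative in old against young mice (median -0.31), comparisons that share the old libraries. Among the 14 other mitochondrial tRNAs, 5 of 14 were positive in curcumin-treated against old mice (median -0.04) and 12 of 14 negative in old against young mice (median -0.36). Under scaling by clean reads all 8 were positive in curcumin-treated against old mice and so were 10 of the other 14 (median 0.21), and with mitochondrial tRNA features alone it was 7 of 8 and 10 of 14. Leaving out the 3 libraries numbered 1 gave 5 of 8 and 3 of 14 positive in curcumin-treated against old mice, and 6 of 8 and 7 of 14 negative in old against young mice. Whether the 8 tRNAs differ from the other 14 in these counts was not tested. The CCA ends had 3 positive and 5 negative changes in curcumin-treated against old mice (median -0.23), 3 and 5 in old against young mice (median -0.21), and 1 and 7 in curcumin-treated against young mice (median -0.38). Under scaling by clean reads the first of these turned to 5 positive and 3 negative (median 0.02) and the last to 3 and 5. The CCA ends of the 14 other mitochondrial tRNAs were positive for 2, 7 and 1 of 14 in these comparisons, and those of nuclear tRNAs for 9, 26 and 9 of 49. The 3′ ends without CCA had 7 positive changes of 8 in curcumin-treated against old, 7 of 8 in old against young and 8 of 8 in curcumin-treated against young mice, against 10, 7 and 12 of 14 among the other mitochondrial tRNAs and 31, 18 and 34 of 38 among nuclear tRNAs. Leaving out the 3 libraries numbered 1 gave 3, 5 and 5 of the 6 still tested, 4, 8 and 3 of 14 and 3, 25 and 2 of 38. Under scaling by clean reads the count of the 8 tRNAs in old against young mice was 4. By strand, 9 of the 12 plus-strand parts were positive in curcumin-treated against old mice and 3 of 12 in old against young mice, while 11 and 12 of the 20 minus-strand parts were. These were 9 and 4 of the 12 plus-strand parts, and 6 and 9 of the 18 minus-strand parts still tested, without the 3 libraries numbered 1. Scaling by clean reads gave 11 and 0 of the 12 plus-strand and 15 and 11 of the 20 minus-strand parts.

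The part with the smallest p in curcumin-treated against old mice was the remainder of Asn-GTT, at 400, 290.4 and 275 CPM in curcumin-treated, 490.4, 892 and 833 CPM in old, and 394, 647 and 761 CPM in young mice. All curcumin-treated libraries lay below all old ones, and the young group overlapped the curcumin-treated group through young replicate 1. Its log2 change was -1.20 (SE 0.33, edgeR adjusted p 0.525) against old and -0.90 (SE 0.33, adjusted p 0.942) against young mice. Without the 3 libraries numbered 1 it was -1.61 (edgeR adjusted p 0.000206) and -1.31 (adjusted p 0.00107). In this fit, chosen after the data were seen and with 2 libraries a group, 14.1% and 12.9% of all features were called.

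The 5′ end of Tyr-GTA had 294, 189.9 and 119 CPM in curcumin-treated, 99.6, 95.02 and 93.3 CPM in old, and 165, 159.9 and 107 CPM in young mice. The old libraries were lowest and nearly equal, and the curcumin-treated ones were spread widely above them. The log2 change was 1.07 (SE 0.36, edgeR adjusted p 0.896) in curcumin-treated against old mice and -0.58 (SE 0.35, adjusted p 0.999) in old against young mice. Its CCA end had 101, 79.8 and 59.7 CPM in curcumin-treated, 141, 110.2 and 197 CPM in old, and 153, 126 and 91.2 CPM in young mice. That end had a log2 change of -0.90 (SE 0.35, adjusted p 0.917) in curcumin-treated against old and -0.62 (SE 0.35, adjusted p 0.942) in curcumin-treated against young mice. In genome-matched reads alone, which hold few reads of CCA ends, the first of these was 0.10.

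The 5′ end of Met-CAT had 364, 335 and 307 CPM in curcumin-treated, 261, 224 and 217 CPM in old, and 306, 254 and 260.5 CPM in young mice. Every curcumin-treated library lay above every other in CPM, but curcumin replicate 3 only narrowly above young replicate 1 (307.28 and 305.8 CPM). Relative to clean reads the order of these libraries was reversed (3786 of 14278019 and 6340 of 19707803 reads). The log2 change against old mice was 0.52 (SE 0.22, edgeR adjusted p 0.917). The CCA end of Met-CAT had 120.0, 179 and 144 CPM in curcumin-treated, 159, 196 and 215 CPM in old, and 178, 253 and 220.2 CPM in young mice, with a log2 change of -0.55 (SE 0.27, adjusted p 0.942) in curcumin-treated against young mice. In genome-matched reads alone that change was 0.12, and without young replicate 2 it was -0.34.

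The 5′ end of Trp-TCA had 236, 304 and 271 CPM in curcumin-treated, 51.4, 253 and 220.3 CPM in old, and 206, 540.2 and 278 CPM in young mice. Old replicate 1 was far below and young replicate 2 far above the rest, and the log2 change in old against young mice was -0.97 (SE 0.55, edgeR adjusted p 0.999). It was -0.55 without old replicate 1 and -0.46 without young replicate 2, and ranged from -1.32 to -0.46 with any 1 library left out. Its CCA end, the most abundant part of Trp-TCA, had 415, 780.0 and 603 CPM in curcumin-treated, 529.5, 393 and 569 CPM in old, and 747, 679 and 506 CPM in young mice, with a log2 change of -0.37 (SE 0.29, adjusted p 0.999) in old against young mice and of -0.22 without old replicate 2.

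The 5′ end of Ala-TGC had 433, 368 and 255 CPM in curcumin-treated, 130.1, 346 and 460 CPM in old, and 382, 418 and 453 CPM in young mice. Old replicate 1 was the lowest here too. The log2 change in old against young mice was -0.42 (SE 0.41, edgeR adjusted p 0.999), and without the 3 libraries numbered 1 it was -0.11. It was -0.05 without old replicate 1 and -0.86 without old replicate 3. The CCA end of Ala-TGC had 67.8, 37.4 and 47.3 CPM in curcumin-treated, 108, 61.1 and 123 CPM in old, and 113, 66.7 and 62.3 CPM in young mice, with a log2 change of -0.67 (SE 0.41, adjusted p 0.942) in curcumin-treated against young mice and of -0.41 without young replicate 1.

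The most abundant parts of the other tRNAs showed less. The remainder of Cys-GCA, the most abundant of all 32 parts, had 1668, 866 and 1088 CPM in curcumin-treated, 1388, 1598 and 1421 CPM in old, and 1304, 1041.5 and 1389.5 CPM in young mice. The remainder of Ala-TGC had 918, 800.4 and 787 CPM in curcumin-treated, 878, 785 and 939 CPM in old, and 813, 826 and 927 CPM in young mice. The remainder of Ile-GAT had 515, 497 and 449 CPM in curcumin-treated, 534, 433 and 497 CPM in old, and 695, 474 and 480.2 CPM in young mice. All 3 overlapped between every pair of groups. The remainder of Met-CAT had 514, 337 and 416 CPM in curcumin-treated, 401, 402 and 333 CPM in old, and 464, 383 and 398 CPM in young mice. The 5′ end of Gln-TTG had 294, 229.9 and 197 CPM in curcumin-treated, 159, 212 and 197 CPM in old, and 156, 234 and 260.1 CPM in young mice. These parts also overlapped between groups. Of the 18 parts not yet described, the remainders over the 9 libraries ranged from 205 to 508 CPM for Trp-TCA, from 151 to 284 CPM for Gln-TTG and from 70.5 to 139 CPM for Tyr-GTA. The 5′ ends ranged from 179.6 to 377 CPM for Ile-GAT, from 70.4 to 155 CPM for Cys-GCA and from 16.2 to 97.2 CPM for Asn-GTT. The CCA ends ranged from 143 to 369 CPM for Ile-GAT, from 24.5 to 66.4 CPM for Gln-TTG, from 48.6 to 76.1 CPM for Cys-GCA and from 19.2 to 42.1 CPM for Asn-GTT. The 8 parts of the 3′ end without CCA ranged from 0.0921 CPM (Gln-TTG, young replicate 2) to 48.8 CPM (Trp-TCA, curcumin replicate 1).

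**Figure D5:**
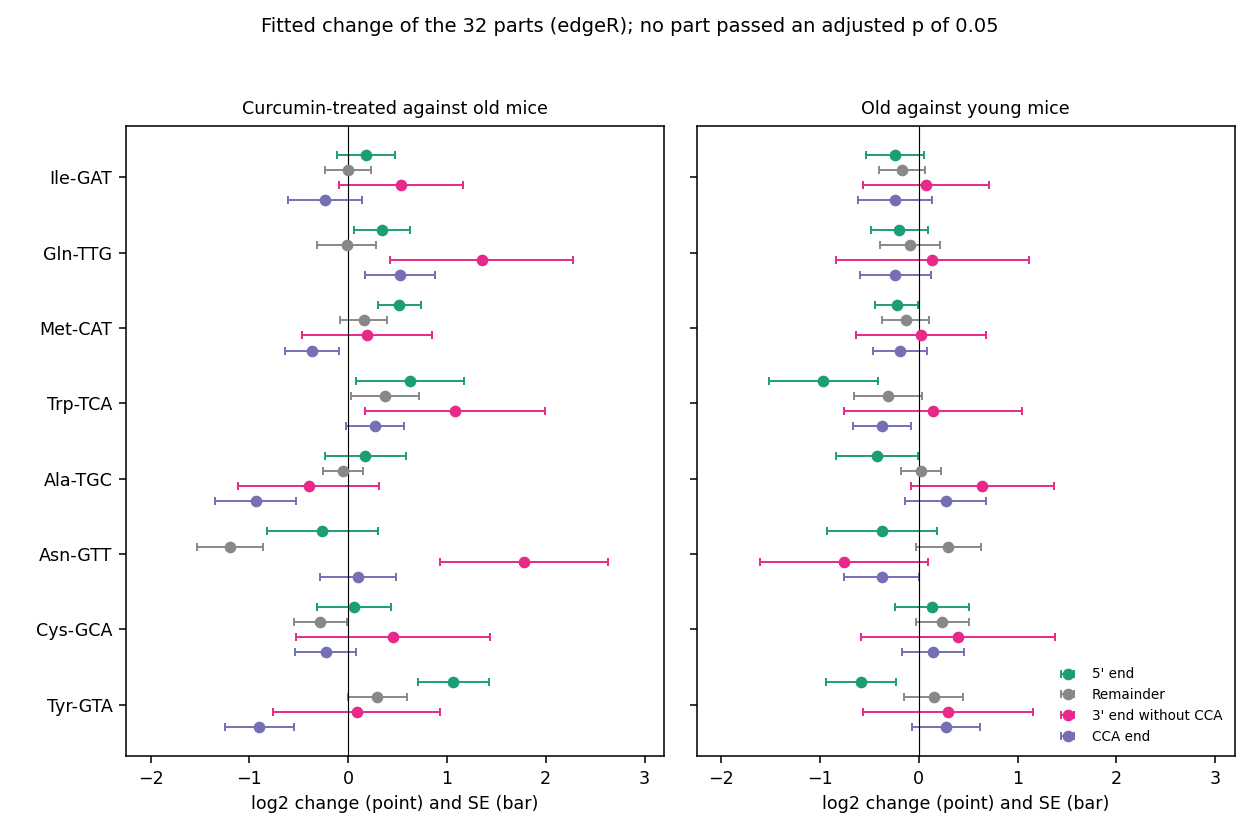
Points give the fitted log2 change of each of the 32 parts and bars its SE, for curcumin-treated against old mice on the left and old against young mice on the right, which share the old libraries. The remainder of Asn-GTT (-1.20) and the 5′ end of Tyr-GTA (1.07) lie farthest from 0 relative to their SE on the left, and no part passed the adjusted test in either panel.

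In TMM-scaled CPM, counts of parts whose libraries did not overlap were near the background. In curcumin-treated against old mice these were 4 of 32, the remainder of Asn-GTT and the CCA end of Tyr-GTA (lower) and the 5′ ends of Tyr-GTA and Met-CAT (higher), against 12.9% of all features. In old against young mice it was 1 of 32, the 5′ end of Tyr-GTA (lower), against 4.62%. In curcumin-treated against young mice it was 2 of 32, the 5′ ends of Met-CAT (higher) and Asn-GTT (lower), against 10.4%. Some of these separations depend on the scaling. Relative to clean reads, the 5′ end of Tyr-GTA was higher in old replicate 1 (1399 of 16123927) than in young replicate 3 (1051 of 12899427). Its CCA end was higher in curcumin replicate 1 (1703 of 17509092) than in old replicate 2 (1390 of 17347658). Without the 3 libraries numbered 1, 30 of the 32 parts were tested and 4 were called by edgeR in curcumin-treated against old mice, against 14.1% of all features: the remainder of Asn-GTT, the CCA ends of Tyr-GTA (-1.13, adjusted p 0.0173) and Ala-TGC (-1.12, adjusted p 0.0247), all lower, and the 3′ end without CCA of Asn-GTT (2.35, adjusted p 0.0194), higher. This last part had 3.195 and 1.46 CPM in curcumin-treated against 0.713 and 0.216 CPM in old replicates 2 and 3. In the same fit the remainder of Asn-GTT was the 1 part called in curcumin-treated against young mice, against 12.9% of all features, and none was called in old against young mice, when 1 had an unadjusted p under 0.05. With mitochondrial tRNA parts alone in this smaller fit, 6 of the 30 were called in curcumin-treated against old mice, against 18.6% of those tested: the remainder of Asn-GTT (-1.21), lower, and its 3′ end without CCA (2.73), the 5′ ends of Met-CAT (0.93) and Tyr-GTA (1.10), and the CCA end (0.91) and remainder (0.66) of Trp-TCA, higher. In curcumin-treated against young mice the remainder of Asn-GTT (-0.96) was lower and the 5′ end of Met-CAT (0.67) higher, against 11.6% of those tested.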

How the data were processed

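Per the labels, RNA of 15 to 45 nucleotides was selected on a gel after AlkB and kinase treatment, ligated with adapters of a QIAGEN miRNA kit and read over 75 cycles. Per the submitters' processing notes, cutadapt 2.5 and the mm10 genome were used. The annotation software with its settings, and whether molecular identifiers served, are not given in the sources used. Deposited values are expected counts per annotation, split by the authors into genome-matched and unmatched reads and not normalized. A species row holds the total of the species, and its remainder is that total less its 3 ends.

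Matched and unmatched reads were summed and rounded. Of 994 features, filterByExpr kept 520 for 1 quasi-likelihood fit of edgeR 4.0.16 (R 4.3.3, TMM, robust, group as the only term, 9 libraries), with p-values adjusted over all 520. Species totals (778, of which 319 were kept) were fitted in the same way. Reads are not independent molecules, so Wilson intervals cover counting error only. Exact two-sided permutation tests over libraries served for shares and ratios, in Python 3.11.15. The scripts were tested on simulated data. Alternatives were RLE scaling, clean-read totals, other filters, DESeq2 1.42.0, limma-voom (limma 3.58.1), genome-matched reads, mitochondrial tRNA features alone, only the groups compared, the replicate number as a block and each library left out. The members and lists were chosen with earlier results of these data known. Values per library are given for the total and the most abundant part of each tRNA and for the 4 parts with the smallest p in each comparison.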

Additional observations from a re-analysis of the deposited data

How the results depend on the processing

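With DESeq2, limma-voom, RLE scaling, clean-read totals, either other filter, genome-matched reads, the 2 groups compared alone, mitochondrial tRNA features alone, or any 1 library left out, 0 of the 32 parts and 0 of the 8 totals were called in each comparison. The replicate numbers do not pair the libraries by the labels, the deviations of same-numbered libraries over all features had correlations of 0.310 to 0.806 in old against young, 0.192 to 0.347 in curcumin-treated against young and -0.0972 to 0.410 in curcumin-treated against old mice, and over the 32 parts of 0.235 to 0.793. Of the 9 libraries 4 correlated best with those of their own number in both other groups, and the replicate block also called 0 parts and 0 totals in each comparison. Outside the 8 tRNAs, DESeq2 called 1 of the 520 features and 1 of the 319 species in curcumin-treated against young mice. With mitochondrial tRNA features alone, edgeR called 1 of the 22 totals in curcumin-treated against old mice. Settings chosen after seeing the data made calls among the 8 tRNAs. Without the 3 libraries numbered 1, edgeR called 4 parts and 2 totals in curcumin-treated against old mice, when 14.1% of all features and 18.8% of all species were called. In curcumin-treated against young mice it called 1 part and 1 total, when 12.9% of features and 23.4% of species were called. With mitochondrial tRNA features alone as well, it called 6 parts and 3 totals in the first comparison (background 18.6% and 40.9%). In the second it called 2 parts and 1 total (background 11.6% and 22.7%). The replicate block with mitochondrial tRNA features alone called 2 parts, the 3′ end without CCA of Asn-GTT (1.99) and the 5′ end of Tyr-GTA (1.10), and 1 total, Asn-GTT (-0.74), in curcumin-treated against old mice, against 4.55% of the 88 parts and 4.55% of the 22 totals. The cause was not tested.

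Of 330 values of the log2 changes of 15 named parts and totals under 22 alternatives, 315 kept their direction and side of the threshold, 13 passed it and 2 turned: with genome-matched reads alone, the CCA ends of Tyr-GTA in curcumin-treated against old (0.10) and of Met-CAT in curcumin-treated against young mice (0.12). No share or ratio could pass its test at these group sizes. The share of clean reads turned without the 3 libraries numbered 1 in old against young mice (0.0324 points). The share of mitochondrial tRNA reads turned in curcumin-treated against old mice with genome-matched reads (-0.760) and without those libraries (-0.334), and in curcumin-treated against young mice without them (-0.0802). The CCA share turned in curcumin-treated against old mice (1.09 with genome-matched reads, 2.97 without those libraries) and in curcumin-treated against young mice (0.454 and 1.33).

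With 1 library left out, the share of clean reads ranged from -0.114 to 0.0281 points in old against young and from -0.0267 to 0.115 in curcumin-treated against young mice. That of mitochondrial tRNA reads ranged from -0.328 to 0.344 in old against young and from -0.159 to 0.512 in curcumin-treated against old mice. The log2 strand ratio ranged from -0.10 to 0.23 in curcumin-treated against young mice. The 3′ share kept its direction in all 3 comparisons without the 3 libraries numbered 1, and with 1 library left out it ranged from -0.102 to 0.256 in old against young, from -0.135 to 0.404 in curcumin-treated against old and from -0.0417 to 0.484 in curcumin-treated against young mice. The CCA share ranged from -2.85 to 2.70 in curcumin-treated against old and from -4.31 to 1.25 in curcumin-treated against young mice. The 5′ share turned in none of these settings. The 3′ ends had 5572 reads over 8 tRNAs and 9 libraries, so values of single tRNAs there rest on few reads.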
